A study of Rattus norvegicus with 29 samples.

Results

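Arg1, Tgm2, Pon3 and Tgfa were measured in rat blood mononuclear cells, the monocytes and lymphocytes of the blood, and are 4 of the 24242 genes that entered the tests. They were chosen by their measured log2 ratios, for RNA higher on a cafeteria diet in fasted or refed rats. The diet differences in those conditions are therefore given as a description, with no test. Each gene was read by 1 probe of the array's 41012, found by its gene name, and all 4 probes passed the filter on dim signal. The cells came from 29 male Wistar rats, each hybridised on its own array, and all rats were 6 months old at sampling. Cafeteria rats (15) had eaten palatable, fat-rich food beside chow for 4 months, a model of obesity brought on by diet, and control rats (14) had eaten chow alone. In each diet some rats had food at all times (fed), some had none for 14 h before blood was taken (fasted), and some were given food again for 6 h after that fast (refed). The groups were cafeteria fed, cafeteria fasted and cafeteria refed with 5 rats each, control fasted and control refed with 5 rats each, and control fed with 4 rats.

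Arg1 is arginase 1, which splits arginine into ornithine and urea. It is best known from the urea cycle of the liver, and in mice it marks macrophages activated by interleukins of the allergic type. Tgm2 is tissue transglutaminase, which cross-links proteins and is made by macrophages and many other cells. Pon3 is a paraoxonase, a lactone-splitting enzyme of the liver and of high-density lipoprotein that protects lipids from oxidation. Tgfa encodes transforming growth factor alpha, a ligand of the epidermal growth factor receptor that the protease ADAM17 frees from the cell surface.

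Values are normalized log2 ratios of the rat's Cy5 signal over the Cy3 signal of a reference pooled from all groups. A value of 0 stands for equal signal of both dyes after normalization. With no dye swap, it need not be the true level of the pool for a given probe. A ratio shows how rats differ for 1 probe and not how abundant 1 gene is beside another. The 60-base probes lie, on the rn4 build, at chr1:21011150-21011209 for Arg1 (A_42_P758222, plus strand), at chr3:148832867-148832926 for Tgm2 (A_44_P1007347, minus strand), at chr4:30000740-30000799 for Pon3 (A_44_P1025613, minus strand) and at chr4:120437505-120437564 for Tgfa (A_44_P310168, plus strand). Which exon or untranslated region each probe lies in was not determined. Tgm2, Pon3 and Tgfa were well above background on all 29 arrays and Arg1 on 28, the exception being control refed rat 3. Arg1 was dim, with a Cy5 signal of 104 to 331 units over a local background of 45.5 to 55 units, so its log2 ratios are compressed.

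The median Cy5 signal of an array was 103 to 154 units, and 53.3% to 66.7% of spots were well above background. The arrays lay on 8 slides and were read by the image software in 2 runs. Run 1 held 4 of 5 cafeteria fed, 1 of 5 cafeteria fasted, 1 of 5 cafeteria refed, 2 of 4 control fed, 4 of 5 control fasted and 2 of 5 control refed arrays. The runs were thus unequal between diets, and values within each run are given beside the results. Of the markers of the labelled cells, 13 of 14 monocyte, 11 of 12 T cell, 6 of 10 B cell and 9 of 10 natural killer cell markers were measured. Platelet and erythroid markers were measured too, and their levels stand beside the results they move with. In such a mixed preparation, a lower value from fewer cells of a type and one from less RNA per cell cannot be told apart. P-values of group differences weigh them against the spread between rats, which here also holds the spread between slides and runs.

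RefSeq promoters of the GRCr8 build were at hand for 2 of the 4 genes, Pon3 and Tgfa, which were both higher in cafeteria than in control rats in the fasted and in the refed state. They are shown so that the letters upstream of both genes can be compared. Each runs over the 250 bases before the annotated start, read along the gene's strand, at chr4:34350245-34350494 (minus strand) for Pon3 and at chr4:120175469-120175718 (plus strand) for Tgfa, and capitals mark a GC box.
Pon3: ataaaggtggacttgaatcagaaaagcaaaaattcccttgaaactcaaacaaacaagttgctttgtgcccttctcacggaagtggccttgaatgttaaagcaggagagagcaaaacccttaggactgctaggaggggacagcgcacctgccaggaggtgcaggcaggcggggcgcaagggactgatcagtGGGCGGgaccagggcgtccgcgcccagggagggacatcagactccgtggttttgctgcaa
Tgfa: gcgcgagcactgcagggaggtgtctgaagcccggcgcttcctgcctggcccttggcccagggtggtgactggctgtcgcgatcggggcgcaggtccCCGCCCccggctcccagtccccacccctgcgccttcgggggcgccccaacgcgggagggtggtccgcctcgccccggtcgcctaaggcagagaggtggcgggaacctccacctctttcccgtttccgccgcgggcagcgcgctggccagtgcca
The GC box searched was GGGCGG on both strands. It began 60 bases before the start of Pon3, and 154 bases before that of Tgfa, where it was read on the other strand. Of 33469 rat promoters of this length, 30.5% held it. Pon3 also held 1 match to TGANTCA, the AP-1 motif searched with any base (N) in the middle. The match began 237 bases before its start and read tgaatca, so it is a match to this loose pattern only. Some match to the pattern was in 6.34% of promoters and not in the Tgfa window. The TATA letters TATAAA, the nuclear receptor motif AGGTCA and the E-box CACGTG were in neither window, against 12.9%, 14.1% and 5.59% of promoters. G and C made up 54.8% of the Pon3 window and 74.4% of the Tgfa window, against a median of 51.2% over the 33469.

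Arg1 was highest in cafeteria refed rats, and in all 3 feeding conditions its mean was higher in cafeteria than in control rats. In the fed state, the log2 ratio was 0.16, -0.0094, 0.45, 0.31 and 0.19 in cafeteria rats, in order of rat number, against -0.13, -0.011, 0.15 and -0.030 in control rats. In the fasted state it was -0.029, 0.27, 0.21, 0.39 and -0.079 in cafeteria rats, against -0.13, -0.11, -0.10, -0.095 and -0.10 in control rats. In the refed state it was 0.46, 0.34, 1.04, 0.14 and 1.13 in cafeteria rats, against -0.31, -0.025, -0.11, 0.0061 and -0.0004 in control rats. Fed rats of the diets overlapped, fasted and refed rats did not, and cafeteria refed rats 9 and 15 stood well above every other rat. The gap between the fasted groups was narrow, from -0.095 in control rat 11 to -0.079 in cafeteria rat 14. With the scanner's processed signals the fasted groups overlapped, as cafeteria rats 2 (-0.25) and 14 (-0.21) lay below control rat 8 (-0.099). In the authors' deposited table they did not overlap. Cafeteria minus control was 0.23 ± 0.14 in fed, 0.26 ± 0.14 in fasted and 0.71 ± 0.14 in refed rats on the log2 scale (± is the standard error of the fit over all 6 groups, here and below), which is 1.17, 1.20 and 1.64 times the control level.

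Tgm2 was higher in cafeteria than in control rats in every condition, by the largest differences of the 4 genes in fed and, as processed here, in refed rats. With the scanner's processed signals the refed difference was larger for Arg1 (1.81) than for Tgm2 (1.54). Fed rats had log2 ratios of 0.23, 1.04, 0.089, 0.44 and -0.025 on the cafeteria diet, against -0.94, -0.23, -0.28 and -0.85 on the control diet. Fasted rats had 0.041, 0.23, -0.28, 0.53 and -0.43 on the cafeteria diet, against -0.93, -0.94, -0.15, -0.21 and 0.065 on the control diet. Refed rats had 0.35, 0.24, 1.09, 0.18 and 1.29 on the cafeteria diet, against -0.71, -0.40, -0.997, -0.15 and -0.58 on the control diet. The diets overlapped only in fasted rats. The difference was 0.93 ± 0.27 (1.90-fold) in fed, 0.45 ± 0.25 (1.37-fold) in fasted and 1.20 ± 0.25 (2.30-fold) in refed rats. Cafeteria refed rats 9 and 15 again had the highest Tgm2 of their group, and the highest value of the fed groups was in cafeteria rat 4.

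Pon3 differed most between diets after refeeding. In fed rats its log2 ratio was -0.021, 0.18, -0.051, 0.66 and 0.037 on the cafeteria diet, against -0.23, 0.044, -0.048 and -0.27 on the control diet. In fasted rats it was 0.087, 0.50, 0.24, 0.79 and -0.11 on the cafeteria diet, against -0.27, -0.40, 0.38, -0.32 and 0.30 on the control diet. In refed rats it was 0.98, 0.82, 0.57, 0.35 and 0.93 on the cafeteria diet, against -0.39, -0.071, -0.23, 0.36 and -0.20 on the control diet. Fed and fasted rats of the diets overlapped, and among refed rats 4 of 5 cafeteria rats stood above every control rat. Cafeteria minus control was 0.29 ± 0.19 (1.22-fold) in fed, 0.36 ± 0.18 (1.29-fold) in fasted and 0.83 ± 0.18 (1.78-fold) in refed rats.

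Tgfa had another pattern, with its diet difference in fasted rats. The log2 ratio in fed rats was -0.21, 0.074, 0.11, 0.29 and 0.51 on the cafeteria diet, against 0.14, 0.059, 0.81 and 0.045 on the control diet. In fasted rats it was 0.18, 0.33, 0.38, 0.28 and 0.20 on the cafeteria diet, against -0.60, -0.58, -0.16, -0.53 and -0.43 on the control diet. In refed rats it was 0.88, 0.22, 0.65, -0.038 and 0.045 on the cafeteria diet, against -0.011, -0.037, 0.16, 0.16 and -0.13 on the control diet. Fasted rats of the 2 diets did not overlap, and those on the cafeteria diet lay close together (SD 0.083, n = 5). Cafeteria minus control was -0.11 ± 0.16 in fed, 0.73 ± 0.16 (1.66-fold) in fasted and 0.32 ± 0.16 (1.25-fold) in refed rats. The fed difference turned to 0.075 without control fed rat 7, and the refed difference shrank to 0.19 without cafeteria refed rat 3.

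**Figure D1:**
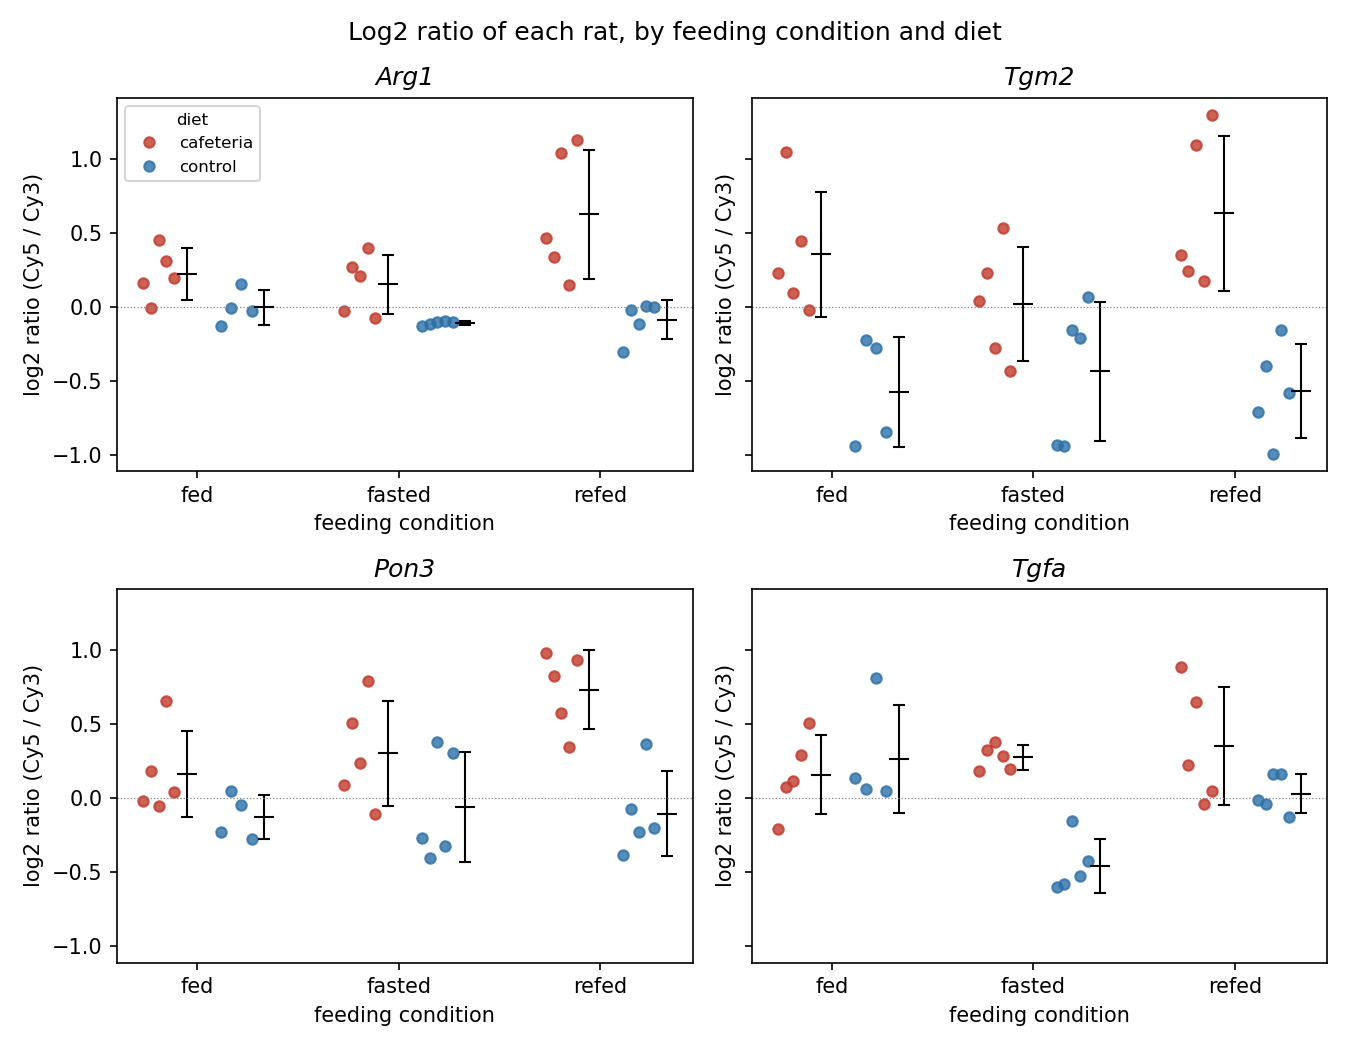
Log2 ratio of Cy5 over Cy3 (vertical axis) of Arg1, Tgm2, Pon3 and Tgfa in each of 29 rats, by feeding condition (horizontal axis) and diet (red, cafeteria; blue, control). Points are rats, in order of rat number, and the bars beside them are the mean and SD; the 5 cafeteria refed rats lie above the 5 control refed rats for Arg1 and Tgm2, and the 5 cafeteria fasted rats above the 5 control fasted rats for Tgfa.

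The order of the 6 group means set Arg1, Tgm2 and Pon3 apart by diet. For each of these 3 genes, the 3 cafeteria means stood above the 3 control means, with cafeteria refed highest. The choice of genes used the fasted and refed arrays, so this order, and that of Tgfa below, is a description. In fed rats, which the choice did not use, none of the 3 genes passed the test (below). Arg1 averaged 0.62 ± 0.44 in cafeteria refed, 0.22 ± 0.17 in cafeteria fed and 0.15 ± 0.20 in cafeteria fasted rats, against -0.0046 ± 0.12 in control fed, -0.088 ± 0.13 in control refed and -0.11 ± 0.013 in control fasted rats (SD, n = 4 in control fed and 5 elsewhere). Tgm2 averaged 0.63 ± 0.52, 0.36 ± 0.42 and 0.018 ± 0.39 in cafeteria refed, fed and fasted rats, against -0.44 ± 0.47, -0.57 ± 0.32 and -0.57 ± 0.37 in control fasted, refed and fed rats. Neighbours in these 2 orders differed by less than the larger SD of the pair. Pon3 averaged 0.73 ± 0.27, 0.30 ± 0.35 and 0.16 ± 0.29 in cafeteria refed, fasted and fed rats, against -0.064 ± 0.37, -0.11 ± 0.29 and -0.13 ± 0.15 in control fasted, refed and fed rats. Only the step from cafeteria refed to cafeteria fasted, 0.43, exceeded the larger SD of the pair.

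For Tgfa the lowest group stood apart. Its mean log2 ratios were 0.35 ± 0.40 in cafeteria refed, 0.27 ± 0.083 in cafeteria fasted, 0.26 ± 0.37 in control fed, 0.16 ± 0.27 in cafeteria fed, 0.029 ± 0.13 in control refed and -0.46 ± 0.18 in control fasted rats (SD, n = 4 in control fed and 5 elsewhere). The step of 0.49 between control refed and control fasted rats was larger than the SD of either group, and each other step was smaller than the larger SD of its pair.

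**Figure D2:**
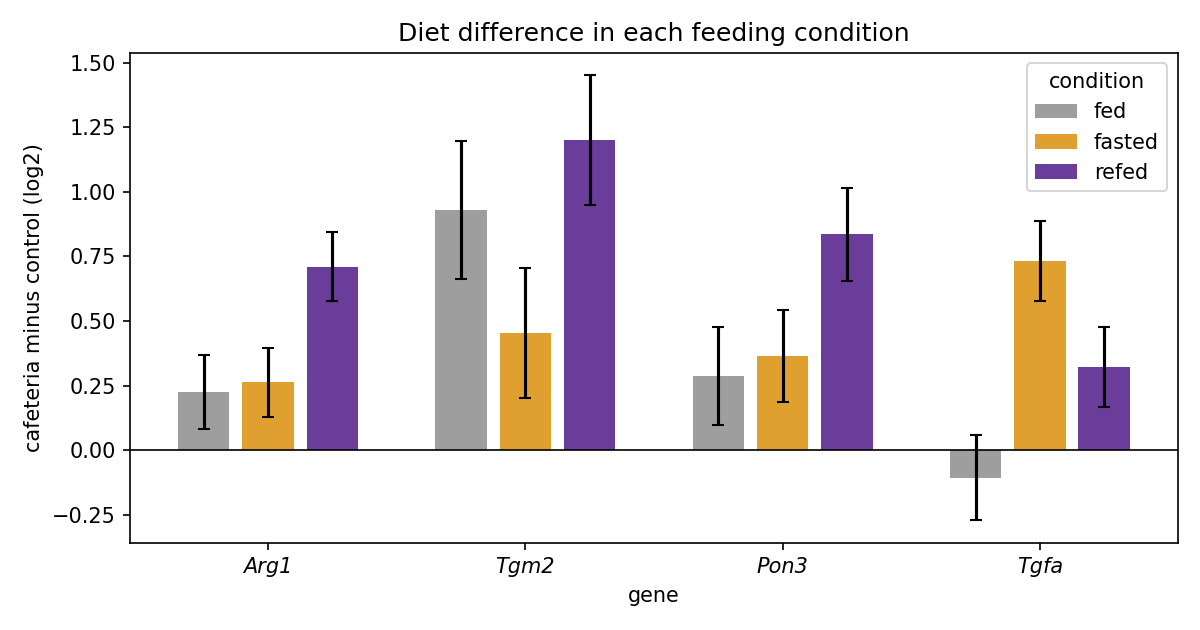
Cafeteria minus control difference of the log2 ratio (vertical axis) for Arg1, Tgm2, Pon3 and Tgfa in fed, fasted and refed rats; bars start at 0 and error bars are standard errors of the fit over 29 arrays. As processed here, Tgm2 has the tallest bars in fed (0.93) and refed rats (1.20), and Tgfa the tallest in fasted rats (0.73).

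The fed rats gave the 1 diet comparison of these genes that the choice had not used. In limma's test over all 24242 genes, none of the 4 differed between cafeteria fed and control fed rats at an adjusted p under 0.05. Of all genes, 2 did (0.00825%), and 1098 had an unadjusted p under 0.05, among them 1 of the 4, Tgm2. Tgm2 differed by 0.93 ± 0.27 with an adjusted p of 0.631, and all 5 cafeteria rats stood above all 4 control rats. Groups not overlapping with the cafeteria side higher were found for 0.426% of genes. Arg1, Pon3 and Tgfa each had an adjusted p of 1.00. Under 11 alternative settings the Tgm2 difference was 0.84 to 1.38 with an adjusted p of 0.190 to 1.00. Leaving out 1 array at a time gave a Tgm2 difference of 0.76 (without cafeteria fed rat 4) to 1.04. For Pon3 the fed difference was 0.16 without cafeteria fed rat 10, and for Arg1 it was 0.70 with the scanner's own processed signals.

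For the comparisons used in the choice, the background was as follows. Between cafeteria fasted and control fasted rats, 201 genes (0.829%) passed the test, 25 of them higher (0.103%), and 1.66% were higher with no overlap of the groups, as Arg1 and Tgfa were. For Arg1 this held by a narrow gap, and not with the scanner's processed signals. Between cafeteria refed and control refed rats, 54 genes (0.223%) passed, 10 of them higher (0.0413%), and 0.564% were higher with no overlap, as Arg1 and Tgm2 were. The size of the differences moved with the processing. With the scanner's processed signals, which replace both the background correction and the loess scaling used here, Arg1 differed by 0.67 in fasted and 1.81 in refed rats, Tgfa by 1.15 in fasted rats and Pon3 by 1.31 in refed rats. The authors' deposited table gave 1.02 for Arg1 in refed rats, against 0.71 here.

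Within the extraction runs, the refed differences kept their direction. In run 1 (1 cafeteria against 2 control rats) they were 0.63 for Arg1, 0.90 for Tgm2, 1.21 for Pon3 and 0.91 for Tgfa, and in run 2 (4 against 3) they were 0.70, 1.28, 0.69 and 0.15. In fasted rats Arg1 and Tgfa differed by 0.38 and 0.79 in run 1 (1 against 4) and by 0.23 and 0.69 in run 2 (4 against 1). Tgm2 and Pon3 differed by 0.79 and 0.66 in run 1 but by -0.10 and -0.051 in run 2, where the single control rat was among the highest of its group for both. With run as a block the fasted Tgm2 difference was 0.25, and with slide as a block 0.21, against 0.45 without. In fed rats Tgm2 differed by 1.08 in run 1 (4 against 2) and 1.30 in run 2 (1 against 2), Pon3 by 0.41 and 0.18, Arg1 by 0.36 and -0.081, and Tgfa by 0.085 and -0.36. On the 2 slides that held both diets in the refed state, the difference was 0.34 and 1.12 for Arg1, 0.83 and 1.45 for Tgm2, 0.57 and 1.02 for Pon3, and -0.12 and 0.35 for Tgfa. On the 2 such slides in the fasted state it was 0.31 and 0.38 for Arg1, -0.35 and 1.17 for Tgm2, -0.065 and 0.91 for Pon3, and 0.81 and 0.91 for Tgfa. On the 2 in the fed state, Tgm2 differed by 1.17 and 1.29.

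Comparing fasted with fed rats, and refed with fasted rats, asks how the genes follow feeding within a diet. These comparisons share the fasted and refed arrays with the choice of genes, and groups with each other, so the 4 genes are described here with no test. Tgfa in fasted minus fed control rats was -0.72 ± 0.16 (0.607-fold), with all 5 fasted below all 4 fed rats. In this comparison 43 of all genes (0.177%) passed limma's test, and 2.43% were lower with no overlap. Tgfa in refed minus fasted control rats was 0.49 ± 0.16 (1.40-fold), and all 5 refed rats stood above all 5 fasted rats. Here 2259 genes (9.32%) passed, 3.31% of genes higher, and 4.08% were higher with no overlap.

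The control fasted rats are the lower side of this Tgfa difference and also of the fasted diet difference for which Tgfa was chosen. Refed minus fasted was 0.26 to 0.63 under 10 alternative settings and 0.45 to 0.56 in the 29 fits that left out 1 array. Within the runs it was 0.44 in run 1 (2 refed against 4 fasted) and 0.49 in run 2 (3 against 1). Platelet markers moved in the same comparison, and all 9 measured markers, such as Pf4 and Gp9, fell. Their mean log2 ratio was -1.40 to -0.26 in control refed and 0.48 to 0.86 in control fasted rats. With that mean as a covariate the Tgfa difference was 0.26 ± 0.21, against 0.49 ± 0.16 without it. The platelet means of the 2 groups did not overlap, so this covariate cannot be told apart from refeeding in control rats. The part of platelets was not tested.

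In cafeteria rats Tgfa differed by less than its standard error, by 0.12 ± 0.16 in fasted minus fed rats (where 208 of all genes, 0.858%, passed limma's test) and by 0.077 ± 0.16 in refed minus fasted rats (343 genes, 1.41%). The other 3 genes had higher means in refed than in fasted cafeteria rats. Arg1 differed by 0.47 ± 0.14, with 4 of 5 refed rats above the fasted mean, Tgm2 by 0.61 ± 0.25 (5 of 5) and Pon3 by 0.43 ± 0.18 (5 of 5), and refed and fasted rats overlapped for each. With the scanner's processed signals the Arg1 difference was 1.06. In control rats the same 3 genes differed by 0.022, -0.13 and -0.042 between refed and fasted rats. Fasted minus fed, they differed by -0.11, 0.14 and 0.063 in control rats and by -0.068, -0.34 and 0.14 in cafeteria rats. Refed minus fed values were 0.40 for Arg1, 0.27 for Tgm2, 0.57 for Pon3 and 0.20 for Tgfa on the cafeteria diet, against -0.083, 0.0044, 0.021 and -0.23 on the control diet. Whether feeding responses differ between diets was not tested.

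Rats of a group that had more Tgm2 tended to have more Pon3. After subtracting each group's mean, the deviations of the 2 genes over the 29 rats had a Pearson r of 0.612 and a Spearman rho of 0.586 (100000 permutations within groups, 2-sided, adjusted over 6 pairs of genes, p = 0.0136 and 0.0185). The r was 0.646 without the 2 rats farthest from the median of Tgm2, 0.669 in run 1 (14 rats) and 0.705 in run 2 (15 rats). For each pair of genes, deviations in a run were taken from the group's mean in that run. In run 1 the single cafeteria fasted and cafeteria refed rats thus add nothing to r. Nor do the single cafeteria fed and control fasted rats in run 2. How often other gene pairs correlate this strongly within groups was not counted. Fasted and refed rats, whose arrays the choice of genes used, are among the 29. The permutation p-values in this paragraph may therefore not be free of that choice. Of the genes most like Pon3 (below), Coro6 (0.826), Hes1 (0.78), Nr1h3 (0.780) and Abcg2 (0.689) had a higher within-group r with it. Ccl6 (0.599) had a lower one. Of those most like Tgm2, Dnajc22 (0.684) and Qrfpr (0.62) had a higher r with it, and Kcnh1 (0.600) and Arg1 a lower one. Whether Tgm2 and Pon3 are specially linked was not tested. Arg1 and Tgm2 had an r of 0.526 (permutation, adjusted p = 0.0546) and a rho of 0.549 (adjusted p = 0.0185). That relation rested on few rats, since r fell to 0.389 without the 2 farthest rats, which were cafeteria refed rats 15 and 12, and to 0.226 without the cafeteria refed group. It was 0.258 in run 1 and 0.836 in run 2. For Pon3 and Tgfa r was 0.376 (permutation, adjusted p = 0.0682) and rho 0.408 (adjusted p = 0.0468), with an r of 0.389 without the 2 farthest rats, 0.558 in run 1 and 0.0783 in run 2. For Arg1 and Pon3 r was 0.366 (adjusted p = 0.0848) and rho 0.434 (adjusted p = 0.0468), with an r of 0.250 without the 2 farthest rats, 0.204 in run 1 and 0.519 in run 2. Tgfa had the weakest relations, with an r of 0.227 with Arg1 and 0.124 with Tgm2 (permutation, adjusted p = 0.526 and 0.593).

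**Figure D3:**
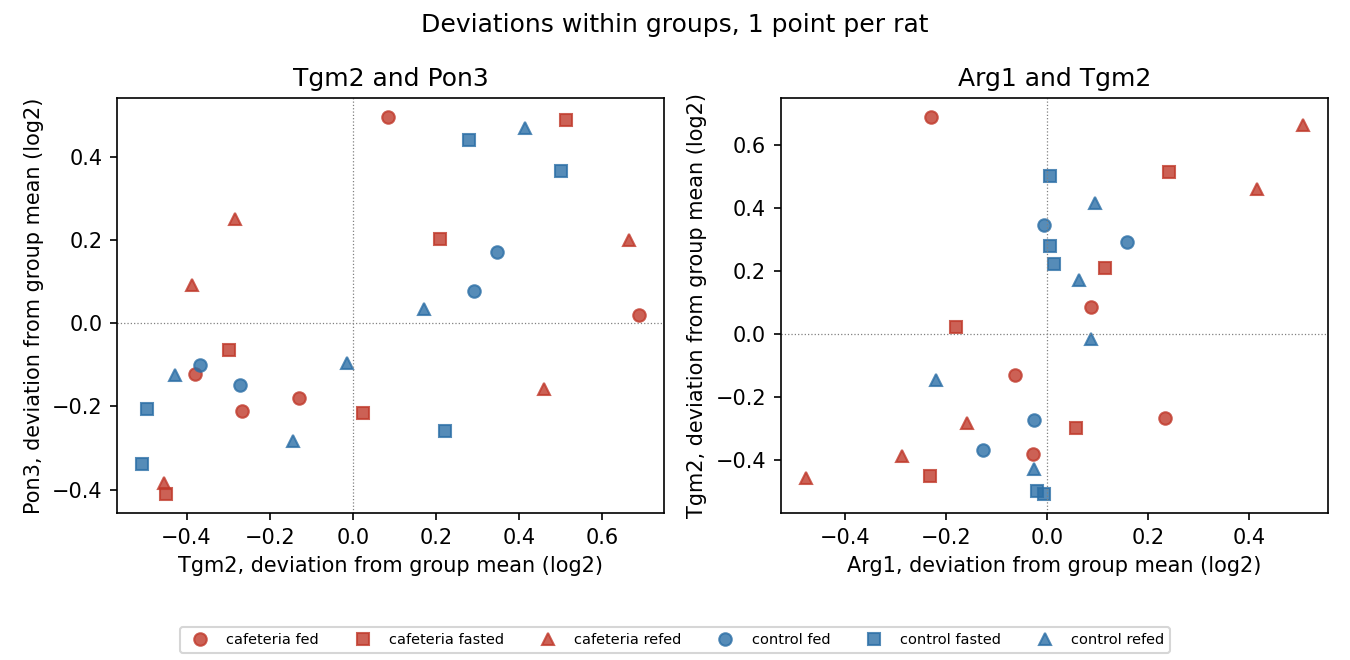
Deviation from the group mean (log2) of Pon3 against Tgm2 (left) and of Tgm2 against Arg1 (right), 1 point per rat, 29 rats in 6 groups (red, cafeteria; blue, control; circles fed, squares fasted, triangles refed). The left panel has r = 0.612 and the right panel r = 0.526, where 3 cafeteria refed rats lie at the ends.

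Over all 29 arrays, with group differences left in, Arg1, Tgm2 and Pon3 were among each other's nearest patterns of 11093 named genes, and Tgfa was not. The arrays share the pooled Cy3 sample and the loess scaling, and the groups drive part of these correlations, so they are a description. The 4 genes were also chosen for a diet difference in these arrays, so their likeness follows in part from the choice. Pearson's r was 0.773 between Arg1 and Tgm2, which was rank 5 for Arg1 and rank 4 for Tgm2. It was 0.782 between Tgm2 and Pon3 (rank 3 for Tgm2 and rank 6 for Pon3). Between Arg1 and Pon3 it was 0.715 (rank 18 for Arg1 and rank 25 for Pon3). Tgfa reached 0.487 with Arg1, 0.363 with Tgm2 and 0.488 with Pon3.

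The genes most like each of the 4 had r between 0.733 and 0.830. For Arg1 they were Nrxn2 (0.830), which encodes a synaptic adhesion protein, Car1 (0.813), the carbonic anhydrase of red cells, Qrfpr (0.801), a neuropeptide receptor, and Dnajc22 (0.778). For Tgm2 they were Dnajc22 (0.823), Qrfpr (0.799) and, after Pon3 and Arg1, the potassium channel gene Kcnh1 (0.733). For Pon3 they were Nr1h3 (0.828), the liver X receptor alpha that senses oxysterols, the Notch target Hes1 (0.812), the efflux pump Abcg2 (0.806), Coro6 (0.805) and the chemokine Ccl6 (0.784). For Tgfa they included Plagl2 (0.800), the transcription factor Cebpg (0.791), Rnpep (0.786) and Cfap70 (0.781). Because likeness to genes chosen for a diet difference selects for that difference, the diet values of these genes are not tested here. In refed rats, cafeteria minus control was 0.82 for Nrxn2, 0.92 for Qrfpr, 0.94 for Ccl6 and 0.45 for Nr1h3. In fasted rats it was 0.21 for Cfap70.

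Erythroid and natural killer cell markers had unlike means in the refed rats of the 2 diets. All 9 erythroid markers found on the array, among them Hbb, Alas2 and Ahsp, were measured, and none was at background. Their mean log2 ratio was -0.54 to 0.78 in cafeteria refed rats and -1.23 to 0.18 in control refed rats. The mean of the markers differed by 0.76, none passed limma's test at an adjusted p under 0.05, and 7 of 9 had an unadjusted p under 0.05, against 8.02% of all genes. Cafeteria refed rats 9 and 15, which were highest for Arg1 and Tgm2, were also highest for these markers, at 0.78 and 0.75. The rest of the group did not follow this order. Cafeteria refed rat 3 was lowest of its group for these markers, at -0.54. Its Arg1 (0.46) and Tgm2 (0.35) stood above those of cafeteria refed rats 6 and 12, and its Pon3 (0.98) was the highest of the group. With the erythroid mean as a covariate, an alternative added after the data were seen, the refed differences were 0.60 for Arg1, 1.02 for Tgm2, 0.87 for Pon3 and 0.45 for Tgfa. Erythroid means overlapped between diets in fasted rats, at -0.52 to 0.27 on the cafeteria and -0.86 to 0.60 on the control diet, and in fed rats they were -0.56 to -0.068 against -0.78 to -0.53.

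The 9 natural killer and cytotoxic cell markers measured, of 10, lay the other way. Their mean was -1.30 to 0.16 in cafeteria refed rats and -0.31 to 0.74 in control refed rats, a difference of -0.49. None passed limma's test, and 5 of 9 had an unadjusted p under 0.05. Cafeteria refed rat 15 was lowest, at -1.30. Between diets the difference of this mean was 0.32 in fed and 0.024 in fasted rats, with 1 and 0 of 9 at an unadjusted p under 0.05. The part of these cells in the refed differences was not tested.

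Monocyte means overlapped between the diets in each condition. Of 14, 13 were measured, Cd163 being the one not well above background. Their mean ran from -0.25 to 0.28 in cafeteria and -0.23 to 0.31 in control rats after refeeding, from -0.27 to 0.30 in cafeteria and -0.46 to 0.16 in control rats after the fast, and from -0.40 to 0.22 in cafeteria and -0.27 to 0.20 in control rats in the fed state. None passed in a diet comparison, where 1, 1 and 0 of 13 had an unadjusted p under 0.05 in fed, fasted and refed rats, against 4.53%, 14.8% and 8.02% of all genes. With their mean as a covariate, Tgm2 and Pon3 differed between fasted rats by 0.27 and 0.19, and the refed differences were 0.71 for Arg1, 1.14 for Tgm2, 0.78 for Pon3 and 0.31 for Tgfa. Neutrophil markers, of which 11 of 14 were measured, had means of -0.39 to 0.74 in cafeteria refed and -0.62 to 0.12 in control refed rats, and -0.36 to 0.94 in cafeteria fasted and -0.39 to -0.16 in control fasted rats. Platelet means were -0.41 to 0.31 in cafeteria fasted and 0.48 to 0.86 in control fasted rats, groups that did not overlap, and none of the 9 markers passed, with 6 at an unadjusted p under 0.05. With the platelet mean as a covariate the fasted Tgfa difference was 0.63. The mean of the T cell markers differed between diets by -0.17, 0.0061 and -0.078 in fed, fasted and refed rats. That of the B cell markers differed by 0.25, 0.072 and 0.15. None passed, with 3, 1 and 2 of 11 T cell and 2, 0 and 1 of 6 B cell markers at an unadjusted p under 0.05. The part of neutrophils, T cells and B cells in these results was not tested.

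**Figure D4:**
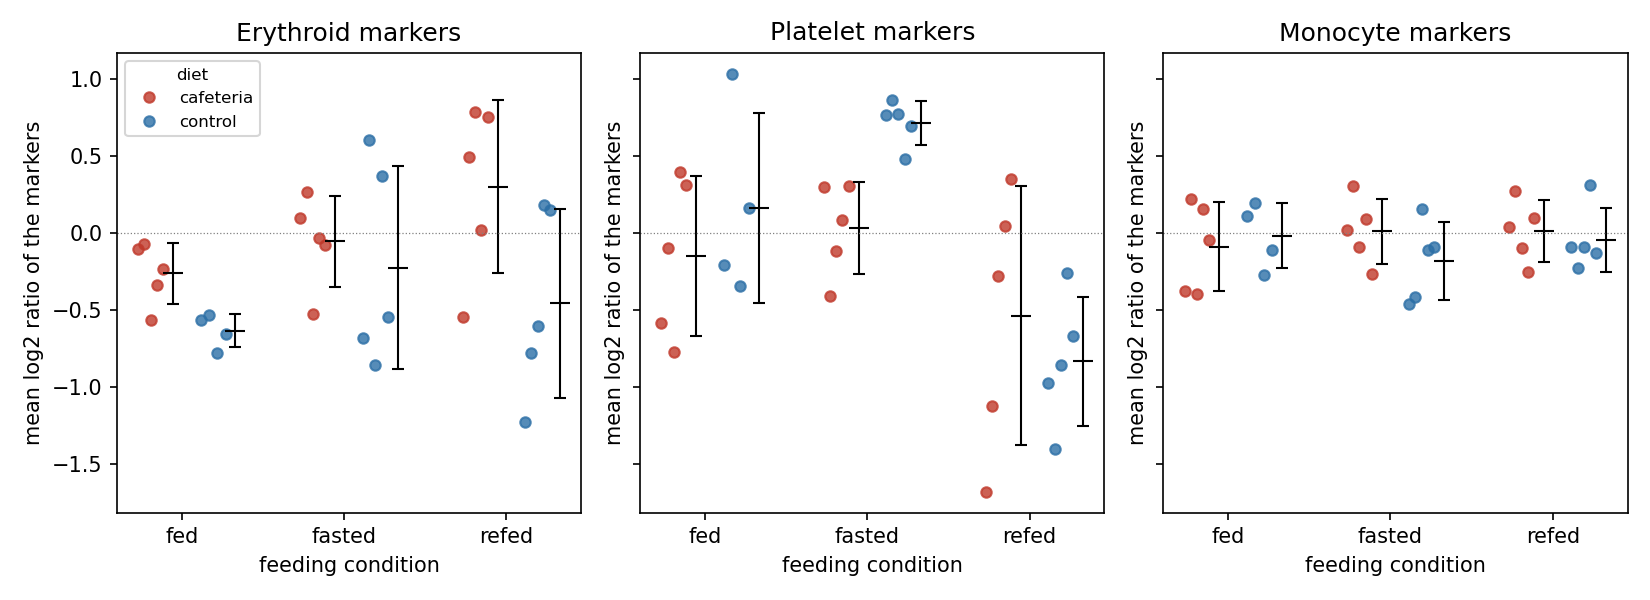
Mean log2 ratio (vertical axis) of 9 erythroid, 9 platelet and 13 monocyte markers in each rat, by feeding condition (horizontal axis) and diet (red, cafeteria; blue, control), with the mean and SD beside the points. Erythroid means reach 0.78 in cafeteria refed rats, platelet means are 0.48 to 0.86 in control fasted rats and reach 1.03 in 1 control fed rat, and monocyte means overlap between the diets in each condition.

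Genes that work with these 4 were set beside them in 6 lists, with 99 genes tested. No listed gene passed limma's test between cafeteria and control rats in any feeding condition. In the background 2, 201 and 54 genes passed in fed, fasted and refed rats (0.00825%, 0.829% and 0.223%), and 4.53%, 14.8% and 8.02% of all genes had an unadjusted p under 0.05. On refeeding, 9.32% of all genes passed in control and 1.41% in cafeteria rats. In control rats all 9 platelet markers fell on refeeding, and with their mean as a covariate 7 genes passed, against 2259 without it. Their mean did not overlap between refed and fasted control rats. The covariate thus also takes up the group difference and widens the standard error, for Tgfa from 0.16 to 0.21. The drop in calls is therefore not a measure of the part of platelets. The part of platelets in the refeeding calls of list genes given below was not tested.

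Of the arginine and polyamine genes, 21 of 32 were tested. Between diets 1, 5 and 2 of them had an unadjusted p under 0.05 in fed, fasted and refed rats, and the median differences were -0.060, 0.017 and 0.020, against 0.0086, 0.014 and 0.0062 over all genes. Arg2 (the mitochondrial arginase), Nos2 (the inducible nitric oxide synthase that competes for arginine) and Slc7a2 (an arginine carrier) were too dim to test. Odc1, which turns the ornithine from arginase into putrescine, had cafeteria minus control differences of -0.47 ± 0.24, -0.56 ± 0.23 and 0.11 ± 0.24 in fed, fasted and refed rats. Refeeding of control rats moved 4 of the 21, against 9.32% of all genes. Odc1 fell by 1.17 ± 0.23 (adjusted p = 0.00219), as did Amd1 (-1.07 ± 0.21) and Azin1 (-0.74 ± 0.17), which act in polyamine synthesis, while the arginine methylase Prmt1 rose by 0.26 ± 0.062. No arginine or polyamine gene passed on refeeding of cafeteria rats, where 4 had an unadjusted p under 0.05, against 13.3% of all genes.

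Of the transglutaminases and their partners, 15 of 20 were tested, and 0, 5 and 2 of them had an unadjusted p under 0.05 between diets in fed, fasted and refed rats. The median differences were -0.10, -0.023 and -0.0099. Tgm1, the keratinocyte enzyme, differed by -0.091 ± 0.065, -0.023 ± 0.061 and -0.0099 ± 0.061. F13a1, the transglutaminase subunit of clotting factor XIII carried by platelets and monocytes, differed by -0.65 ± 0.36, -0.9996 ± 0.34 and -0.052 ± 0.34, with adjusted p of 1.00, 0.156 and 0.992, the opposite sign to Tgm2. On refeeding of control rats 3 of the 15 passed. F13a1 fell by 1.58 ± 0.34 (adjusted p = 0.00328), with the integrins Itgb1 (-0.67) and Itgb3 (-0.96), of which Itgb3 is a platelet marker here. Tgm2 itself differed by -0.13 in that comparison.

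Of the paraoxonases and enzymes of high-density lipoprotein, 16 of 17 were tested, and 1, 3 and 2 of them had an unadjusted p under 0.05 between diets in fed, fasted and refed rats. The median differences were -0.047, 0.10 and 0.094. Pon1 and Pon2, the other members of the family, differed in refed rats by 0.18 ± 0.092 and 0.17 ± 0.075 (adjusted p = 0.672 and 0.523), against 0.83 for Pon3. In fasted rats they differed by 0.12 and 0.052, and in fed rats by 0.091 and -0.0091. Abca1, the cholesterol exporter that loads high-density lipoprotein, differed by 0.15 ± 0.16, 0.49 ± 0.15 and 0.57 ± 0.15 in fed, fasted and refed rats (adjusted p = 1.00, 0.123 and 0.120). Pla2g7, a phospholipase that cleaves oxidised lipids, differed by -0.089, 0.54 and 0.54. Refeeding moved 4 of the 16 past the threshold in control rats, Pltp (-1.17), Clu (-1.68), Scarb1 (0.42) and Abcg1 (0.39), and 1 in cafeteria rats, Abcg1 (0.40).

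Of the epidermal growth factor family, 19 of 26 were tested, and 1, 6 and 2 of them had an unadjusted p under 0.05 between diets in fed, fasted and refed rats. The median differences were -0.0057, -0.017 and -0.011. Among the ligands, Areg differed by -0.082, -0.078 and -0.100 and Hbegf by -0.032, -0.13 and -0.10, and Ereg was too dim to test. The receptor Egfr differed by -0.0057, 0.024 and -0.0020, and the shedding protease Adam17 by 0.023, -0.0025 and -0.029. Shc1, an adaptor below the receptor, differed by -0.29 ± 0.14, -0.48 ± 0.13 and -0.29 ± 0.13, and in fasted rats, where it was lower in 5 of 5 rats, its adjusted p was 0.0720. On refeeding of control rats 3 of the 19 passed, as Areg fell by 0.39 ± 0.12 (adjusted p = 0.0414), and Nrg2 (-1.11) and Erbin (-0.52) fell.

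Of the genes of alternatively activated macrophages, 17 of 23 were tested, and 1, 6 and 3 had an unadjusted p under 0.05 between diets in fed, fasted and refed rats. The median differences were -0.0038, 0.15 and 0.050. The mannose receptor Mrc1 differed by -0.019, -0.043 and 0.18, the lectin Clec10a by -0.50, -0.26 and -0.35, and the fatty acid carrier Cd36 by 0.13, 0.22 and 0.65 (adjusted p = 0.304 in refed rats). Retnla, another gene of such macrophages in mice, was too dim to test, as was Cd163. Pparg, 1 of the 17, rose on refeeding of control rats, by 0.56 ± 0.12 (adjusted p = 0.00318). Of the retinoid and nuclear receptors, 11 of 15 were tested, and 0, 5 and 1 had an unadjusted p under 0.05. The median differences were 0.081, 0.10 and 0.058. Nr1h3, the gene most like Pon3, differed by 0.082 ± 0.17, 0.47 ± 0.16 and 0.45 ± 0.16, and Rxrg, a partner of such receptors, by 0.18, 0.63 and 0.19. On refeeding, 1 of the 11 passed in each diet. Ppard fell by 0.16 ± 0.045 in control rats (limma's adjusted p = 0.0241), and Crabp2, a carrier of retinoic acid, fell by 0.42 ± 0.094 in cafeteria rats (adjusted p = 0.0203), after being 0.39 ± 0.094 higher in fasted than in fed cafeteria rats (adjusted p = 0.0423).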

How the data were processed

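Per the labels, blood mononuclear cells of 29 rats were isolated on a Ficoll gradient, and amplified RNA of each rat in Cy5 was set against a Cy3 pool of all groups on a G4131F array, with no dye swap. The scanner output that the authors deposited gives the intensity of every spot and of its local background, and a processed log10 ratio of Cy5 over Cy3. Per its headers it came from Agilent Feature Extraction 9.5.1.1 and places probes on rn4. The authors' deposited value table is on a log2 scale, since its slope against log2 Cy5 intensity lay between 0.985 and 1.02. Its column medians lay between 9.45 and 9.65 in cafeteria and 9.35 and 9.52 in control rats when fed, between 9.42 and 9.64 against 9.34 and 9.49 when fasted, and between 9.42 and 9.60 against 9.43 and 9.72 when refed. Direction and scale are thus known, and its normalization between arrays is not given in the sources used here.

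Intensities were corrected here with normexp (offset 50) and normalized by loess within each array (R 4.3.3, limma 3.58.1), with control and outlier spots at weight 0 and 526 outlier values left out. Probes well above background on at least 4 arrays were kept (28193 of 41012), and the brightest probe stood for a gene, which gave 24242 genes, 11214 of them with a symbol. Symbols came from a RefSeq table of GRCr8, which named 19396 probes, and 128 names were set aside because the probe lay on another chromosome. A single limma fit over the 6 groups gave 7 comparisons, with 2-sided p-values adjusted by Benjamini-Hochberg within each and calls at an adjusted p under 0.05. Tests of the 4 genes were kept to fed rats, since the feeding comparisons, planned as tests, use the arrays of the choice. The fit was tested on simulated data. Plots were drawn with matplotlib.

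The members and gene lists were chosen with earlier results of these data known. Named besides the members were the 5 genes most like each, a fixed set of related genes where measured, and, of each list, the genes called between diets or else the 2 with the largest mean diet difference. Of the genes most like Tgfa, 1 is not reported here. List genes called on refeeding are named beyond that rule, after their values were seen. Rat numbers run across groups in the labels. They were not treated as pairs in the main fit, since deviations of rats sharing a number correlated by -0.15 to 0.207 in 14 pairs. Such weak correlations cannot exclude that the design paired rats. Precision is limited by the number of arrays. Alternatives were processed signals, median centring, the authors' table, no dim filter, every probe, blocks for slide, run and rat number, marker means as covariates, and leaving out each array.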

Additional observations from a re-analysis of the deposited data

Results flagged for a closer look

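Tgfa in control fed rat 7 stood apart from its group, with a log2 ratio of 0.81 against 0.045 to 0.14 in the other control fed rats. Its gap to the nearest of them was 0.879 of the group's range, above the limit of 0.829 for 4 samples, and chance alone flags about 1 in 20 groups. Without this rat the cafeteria minus control difference in fed rats was 0.075 in place of -0.11, and fasted minus fed control rats was -0.54 in place of -0.72.

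The fasted rats of the 2 diets lay on opposite sides of their fed means for Tgfa. All 5 cafeteria fasted rats stood above the mean of cafeteria fed rats, and all 5 control fasted rats below the mean of control fed rats, and the fasting differences of the 2 diets were 0.84 apart (0.12 ± 0.16 in cafeteria minus -0.72 ± 0.16 in control rats, so that the first is smaller than its standard error). This difference between diets was not tested, and it shares its fasted arrays with the choice of Tgfa.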

How the results depend on the processing

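The 4 diet differences in fasted and in refed rats, and those of Arg1, Tgm2 and Pon3 in fed rats, kept their direction under all alternative settings and fits without an array, though not in every run or slide taken alone (values above), and no fed difference passed the test in any. Their size moved with the scanner's processed signals for Arg1 (0.67 in fasted and 1.81 in refed rats), Tgfa in fasted (1.15) and Pon3 in refed rats (1.31), and with the authors' table for Arg1 in refed rats (1.02). In fasted rats the Tgm2 difference was 0.21 with slide as a block, 0.25 with run as a block and 0.27 with the monocyte mean, against 0.45, and that of Pon3 was 0.19 with the monocyte mean, against 0.36. The near-zero differences of Arg1 in refed minus fasted control rats turned to -0.079 with processed signals, -0.0091 with the authors' table and -0.0092 with slide as a block. With the platelet mean as a covariate, refed minus fasted turned to 0.19 for Tgm2 and 0.011 for Pon3 in control rats and to -0.0074 for Tgfa in cafeteria rats. The causes were not tested.

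Leaving out 1 array gave -0.19 to 0.075 for Tgfa in cafeteria minus control fed rats, -0.055 to 0.17 for Tgfa in refed minus fasted cafeteria rats, -0.047 to 0.15 for Pon3 in fasted minus fed and -0.16 to 0.068 in refed minus fasted control rats, and -0.0017 to 0.077 for Arg1 in refed minus fasted control rats. Tgfa in fasted minus fed control rats ran from -0.80 to -0.54.

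Counts of genes called moved more than the members did. Processed signals gave 13 for diet in fasted, 118 for diet in refed and 16 for fasting in control rats. Median centring gave 0, 24 and 0 for diet in fed, fasted and refed rats, 2 and 0 for fasting in control and cafeteria rats, and 808 and 0 for refeeding in control and cafeteria rats. The authors' table gave 1, 9 and 292 for diet, 1 for fasting in control rats, and 3921 (2951 higher) and 143 for refeeding in control and cafeteria rats, against 2259 (802 higher) and 343. Without a dim filter 1 gene was called for diet in fed and 15 for fasting in control rats, and with every probe 1, 318 and 104 for diet and 23 for fasting in control rats. Slide as a block gave 0 and 1 for diet in fed and refed and 16 and 1 for fasting in control and cafeteria rats, and run as a block 1 for diet in fed and 22 for fasting in cafeteria rats. Rat number as a replicate block, which changed no call for diet in fed rats among the 4 genes, gave 0 for diet in fed and 141 in refed rats, and 2 of 14 pairs correlated best with their own number. The erythroid mean gave 1 and 1 for diet in fed and refed, 90 and 313 for fasting in control and cafeteria and 177 for refeeding in cafeteria rats, the platelet mean 6 and 357 for diet in fed and fasted, 10 for fasting and 7 for refeeding in control rats, and the monocyte mean 1 for diet in fed and 136 for fasting in control rats. The marker covariates were chosen after seeing the data. Without 1 array the counts were 0 to 4, 62 to 367 and 4 to 141 for diet in fed, fasted and refed rats, 6 to 112 and 10 to 303 for fasting in control and cafeteria rats, and 1676 to 2377 and 74 to 523 for refeeding.

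Arg1 lies close to its background, so its differences are the least certain in size. With 4 or 5 rats a group, single rats such as cafeteria refed rats 3, 9 and 15 carry much of a mean.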
